A study of Mus musculus with 7 samples.

Results

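Expression of the interleukin-1 (IL-1) family and its receptors was examined in dorsal skin of aged mice. The genes were taken by symbol as a fixed group of 9, made up of 5 ligand genes (Il1a, Il1b, Il18, Il33 and the receptor antagonist Il1rn) and 4 receptor genes (Il1r1, Il1r2, Il1rap and Il1rl1), out of 55450 genes in the deposited count table. All 9 had enough reads to be among the 17959 genes tested. The mice were male C57BL/6 of 24 months. Their dorsal hair was clipped and stripped with a depilatory lotion, and the skin was cleaned with ethanol and then given either the vehicle DMSO (4 mice, numbered 480 to 483) or ABT-263 at 5 μM in it (3 mice, numbered 476 to 478) under an adhesive film for 5 days, so clipping, depilation and occlusion were common to both groups. ABT-263 (navitoclax) is a small molecule that blocks anti-apoptotic proteins of the BCL-2 family and is used as a senolytic, an agent meant to remove senescent cells. Each mouse gave 1 library of polyA RNA from whole skin, and the comparison asks how the balance of agonist, antagonist and decoy differed after the drug.

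IL-1α and IL-1β are agonists that bind the receptor IL-1R1. The bound receptor then recruits the accessory protein encoded by Il1rap, and the pair signals through MyD88 and IRAK kinases to NF-κB. The system carries its own brakes. The antagonist encoded by Il1rn occupies IL-1R1 without recruiting the accessory protein, and IL-1R2 binds agonist but lacks the signalling domain, so it acts as a decoy. IL-18 and IL-33 are related cytokines, and the receptor of IL-33 is ST2, encoded by Il1rl1, which shares the accessory protein. In skin, keratinocytes hold preformed IL-1α, antagonist and IL-18, IL-33 is kept in the nuclei of epithelial, stromal and endothelial cells, and IL-1β is made mainly by activated myeloid cells.

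Depth was 20344364 to 26824123 counted read pairs in the DMSO libraries and 27325963 to 43562330 in the ABT-263 libraries. The libraries carried the markers of whole skin. The summed level of 6 basal keratinocyte markers (Krt5, Krt14 and others) lay between 13784 and 35815 CPM (counts per 1000000 counted read pairs, after TMM normalization) over all mice, and that of 5 fibroblast markers between 3692 and 8073 CPM. The sum of 5 skeletal muscle markers was 25973 to 53176 CPM after DMSO and 21880 to 30260 CPM after ABT-263, with 1 marker (Tnnt3) called lower. The sum of 4 adipocyte markers was 51.3 to 290.3 CPM after DMSO and 75.8 to 510.7 CPM after ABT-263, with 0 called (2 higher at an unadjusted p under 0.05 from edgeR, 2 with the DESeq2 Wald test, 0 with limma). Genes of the growing hair follicle stood apart in DMSO mouse 481, at a sum of 2070 CPM for 4 markers, and in ABT-263 mouse 478, at 394 CPM, against 0.393 to 16.2 CPM in the other mice. ABT-263 mouse 476 stood apart in leukocyte genes and in several of the genes described here.

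Of the 9 genes, 6 were higher after ABT-263 and 0 were lower at an adjusted p-value under 0.05 (edgeR's quasi-likelihood test, two-sided, adjusted over all genes tested). Over all genes tested, 24.2% passed in either direction, 12.4% higher and 11.7% lower. The 6 were the agonist genes Il1a and Il1b, the antagonist gene Il1rn, the signalling receptor Il1r1, its accessory protein Il1rap, and Il33. The decoy receptor Il1r2, the cytokine Il18 and the IL-33 receptor Il1rl1 did not pass. None was lower at an unadjusted p under 0.05 either, nor with the DESeq2 Wald test or with limma on the authors' variance-stabilized values (0 genes in each). The same 6 genes were those in which every ABT-263 mouse lay above every DMSO mouse, a pattern found higher after ABT-263 in 18.7% of all genes tested. Over the 9 genes the median log2 fold change was 1.48 and over all genes tested it was 0.00. Of the 9, 8 had their highest value of all 7 mice in mouse 476, the exception being Il18.

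**Figure D1:**
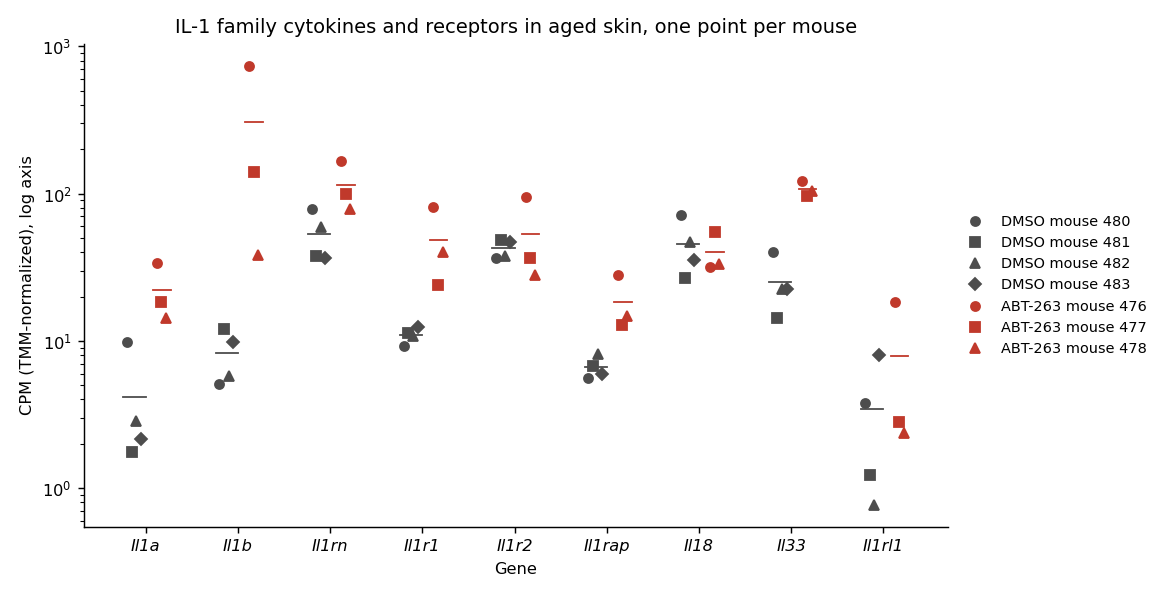
Level of each of the 9 genes in CPM (TMM-normalized, log axis), with 1 point per mouse, grey for DMSO and red for ABT-263, and a short line at each group mean. The groups are apart for Il1a, Il1b, Il1rn, Il1r1, Il1rap and Il33 and overlap for Il1r2, Il18 and Il1rl1, and the circle of ABT-263 mouse 476 is the top point for 8 of the 9 genes.

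Il1b had the largest fold change of the 9. The gene lies on the minus strand of chromosome 2 from 129364570 to 129371139 (GRCm38, as for all positions here) and encodes IL-1β, a secreted agonist that must be cut from an inactive precursor. Its level was 5.11, 12.1, 5.80 and 9.86 CPM in DMSO mice 480, 481, 482 and 483, and 736, 140.2 and 38.5 CPM in ABT-263 mice 476, 477 and 478. The DMSO mice were close together, whereas the ABT-263 mice spread widely, with mouse 476 at 8.24 times the mean of the other two. The log2 fold change was 5.21 (SE 0.97, adjusted p = 0.0132 from edgeR), a 37.1-fold difference. Leaving out mouse 476 gave 3.45 (adjusted p = 0.0227), a 10.9-fold difference. Il1b passed the threshold with any 1 mouse left out. In bulk tissue, more cells that express a gene and more RNA per cell cannot be told apart.

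Il1a, which encodes the agonist IL-1α, an alarmin that is active without cleavage, lies close to Il1b on the same strand of chromosome 2, from 129299610 to 129309972. Its level was 9.90, 1.77, 2.87 and 2.14 CPM in DMSO mice 480 to 483 and 34.0, 18.5 and 14.2 CPM in ABT-263 mice 476 to 478. The groups did not overlap, but DMSO mouse 480 was well above the other DMSO mice. It rose by 2.41 on the log2 scale (SE 0.63, adjusted p = 0.0326 from edgeR), but the call was weak. With 1 mouse left out in turn it passed in 1 of 7 fits, the one without DMSO mouse 480, where the log2 fold change was 3.30 (adjusted p = 0.00774). Without mouse 476 it was 1.97 (adjusted p = 0.111). With every gene that had a count included in the fit the adjusted p was 0.104, and over all alternatives that kept the 7 mice it ranged from 0.000598 to 0.104.

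The balance of the 2 agonists did not separate the groups. The ratio of Il1b to Il1a was 0.517, 6.83, 2.02 and 4.62 in the DMSO mice and 21.7, 7.59 and 2.71 in the ABT-263 mice, so the groups overlapped. Reads were counted on the gene's own strand, and both genes share exon bases with a gene on the other strand, 25 bases with Il1bos for Il1b and 222 bases with Gm14023 for Il1a. Il1bos was at 0.451 to 1.31 CPM over all mice, below Il1b in each. Gm14023 was at 1.31, 1.35, 1.64 and 2.10 CPM in DMSO mice 480 to 483, near the level of Il1a in mice 481 to 483, and at 1.04, 0.907 and 0.838 CPM in ABT-263 mice 476 to 478.

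Il1rn, on chromosome 2 from 24336853 to 24351494, encodes the receptor antagonist. It was at 78.2, 37.8, 59.2 and 36.7 CPM in DMSO mice 480 to 483 and at 166.6, 99.4 and 78.6 CPM in ABT-263 mice 476 to 478. The lowest ABT-263 mouse was barely above the highest DMSO mouse. It rose by 1.12 on the log2 scale (SE 0.34), with an adjusted p of 0.049 from edgeR, just under the threshold. With 1 mouse left out in turn it passed in 1 of 7 fits, the one without DMSO mouse 480 (adjusted p = 0.0282), and without mouse 476 the log2 fold change was 0.75 (adjusted p = 0.157). Of the 8 alternatives that kept all mice, 3 left it under the threshold, and the adjusted p over them ranged from 0.0119 to 0.0981.

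Set against the agonists, the antagonist transcript was lower after ABT-263 although its own level was higher. The ratio of Il1rn to the sum of Il1a and Il1b was 5.21, 2.73, 6.83 and 3.06 in DMSO mice 480 to 483, and 0.216, 0.626 and 1.49 in ABT-263 mice 476 to 478. In CPM, antagonist reads therefore outnumbered agonist reads in all 4 DMSO mice and in 1 of the 3 ABT-263 mice, mouse 478. The groups did not overlap, and the geometric mean was 7.07-fold lower after ABT-263, a difference of -2.82 on the log2 scale. Leaving out 1 mouse moved this difference between -3.50 (without mouse 478) and -2.10 (without mouse 476). Per kilobase of exon, which allows for the longer Il1rn transcript, the ratio was 0.943 to 2.38 in the DMSO mice and 0.0746 to 0.519 in the ABT-263 mice. No test was run on ratios, since the genes were chosen with earlier results known.

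**Figure D2:**
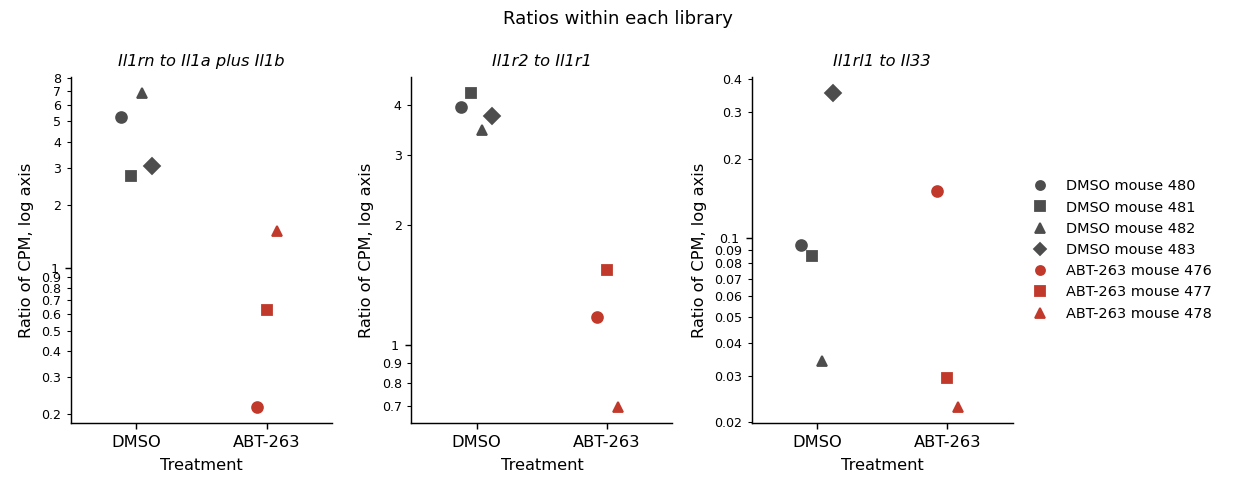
Ratios of CPM within each library on log axes, 1 point per mouse, for the antagonist against both agonists, the decoy against the signalling receptor, and the IL-33 receptor against its ligand. The first pair of ratios is lower in each ABT-263 mouse than in any DMSO mouse, and the third overlaps between the groups.

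Both parts of the signalling receptor were higher after ABT-263. Il1r1, on chromosome 1 from 40225080 to 40317257, was at 9.29, 11.3, 10.8 and 12.5 CPM in DMSO mice 480 to 483 and at 80.8, 23.9 and 40.1 CPM in ABT-263 mice 476 to 478. The DMSO values were tight, with an SD of 1.32 CPM (n = 4), and the lowest ABT-263 mouse was clearly above them. Il1r1 rose by 2.14 on the log2 scale (SE 0.37, adjusted p = 0.00997 from edgeR), a 4.41-fold difference that was 2.93-fold without mouse 476 (adjusted p = 0.0152). Il1rap, on chromosome 16 from 26581704 to 26730117, was at 5.56, 6.78, 8.11 and 6.00 CPM in DMSO mice 480 to 483 and at 28.0, 12.9 and 14.7 CPM in ABT-263 mice 476 to 478. Its log2 fold change was 1.48 (SE 0.29, adjusted p = 0.0127 from edgeR) and 1.07 without mouse 476. Both receptor genes passed in all 7 fits with a mouse left out. Il1rap also encodes a secreted form, which gene counts cannot tell from the membrane form, and shares 552 exon bases with Gm20319 on the other strand, a gene at or below 0.103 CPM in every mouse.

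Il1r2, the decoy, lies on chromosome 1 from 40074079 to 40125231. It was at 36.7, 48.3, 37.6 and 46.8 CPM in DMSO mice 480 to 483 and at 94.1, 36.7 and 27.9 CPM in ABT-263 mice 476 to 478. Mouse 476 was the highest of all mice, and of the others, 477 was level with the lowest DMSO mouse and 478 below it. The log2 fold change was 0.32 (SE 0.39, adjusted p = 0.576 from edgeR), and its sign turned without mouse 476, to -0.38 (adjusted p = 0.201). In contrast, the ratio of decoy to signalling receptor was tight in the DMSO mice and did not overlap between the groups. It was 3.96, 4.30, 3.47 and 3.75 in DMSO mice 480 to 483 and 1.17, 1.54 and 0.696 in ABT-263 mice 476 to 478. The ratio thus separated the groups in mouse 476 as in the other mice, with a difference of -1.84 on the log2 scale that stayed between -2.10 and -1.53 with 1 mouse left out. Per kilobase of exon the decoy was the more abundant receptor transcript in every mouse, at ratios of 11.6 to 14.3 after DMSO and 2.32 to 5.13 after ABT-263.

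Of the 6 genes that rose, Il33 was the one in which mouse 476 stood least above the other ABT-263 mice. It lies on chromosome 19 from 29925114 to 29960718 and encodes a nuclear alarmin released from damaged cells. Its level was 40.4, 14.4, 22.5 and 22.6 CPM in DMSO mice 480 to 483 and 122.6, 95.7 and 104.4 CPM in ABT-263 mice 476 to 478. The ABT-263 mice were close together (107.6 ± 13.7 CPM, SD, n = 3), with mouse 476 at only 1.22 times the mean of the other two, against 8.24 times for Il1b. It rose by 2.11 on the log2 scale (SE 0.31, adjusted p = 0.00726 from edgeR) and by 2.01 without mouse 476, and it passed in all 7 fits with a mouse left out.

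Il1rl1, the gene of the IL-33 receptor ST2, lies on chromosome 1 from 40429570 to 40465415 and had the lowest mean of the 9 genes in both groups. It was at 3.81, 1.22, 0.77 and 8.01 CPM in DMSO mice 480 to 483, from 15 to 195 read pairs per mouse, and at 18.5, 2.82 and 2.38 CPM in ABT-263 mice 476 to 478. Outside mouse 476 the groups lay in the same range. Its log2 fold change was 1.18 (SE 0.96, adjusted p = 0.395 from edgeR), and -0.41 without mouse 476 (adjusted p = 0.796). The ratio of Il1rl1 to Il33 was 0.0941, 0.0850, 0.0342 and 0.355 in the DMSO mice and 0.151, 0.0295 and 0.0228 in the ABT-263 mice, so the receptor was the lesser transcript in all 7 mice and the groups overlapped. Counts per gene do not separate the membrane form of ST2 from its soluble decoy form.

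Il18, on chromosome 9 from 50554827 to 50581840, encodes a cytokine that keratinocytes store as a precursor. It was at 71.9, 26.9, 47.2 and 35.3 CPM in DMSO mice 480 to 483 and at 31.5, 55.1 and 33.2 CPM in ABT-263 mice 476 to 478. The groups overlapped almost completely, and here mouse 476 was the lowest ABT-263 mouse. The log2 fold change was -0.18 (SE 0.35, adjusted p = 0.733 from edgeR), and 0.13 without DMSO mouse 480 (adjusted p = 0.759). The summed level of 6 suprabasal keratinocyte markers (Krt1, Krt10, Flg and others) was 42559, 12162, 21233 and 12664 CPM in DMSO mice 480 to 483 and 7232, 27374 and 17580 CPM in ABT-263 mice 476 to 478. Mice 480, 477 and 482 were the top 3 in both Il18 and this sum, and the part of epidermal content in the Il18 values was not tested.

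With 4 mice against 3, an exact permutation test over all 35 splits cannot go below 0.0286. It reached that value, two-sided, for Il1b, Il1r1, Il1rap and Il33 (each p = 0.0286), and for Il1a and Il1rn the exact p was 0.0571. The 2 genes whose calls were weakest in edgeR were thus also above 0.05 in the exact test.

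**Figure D3:**
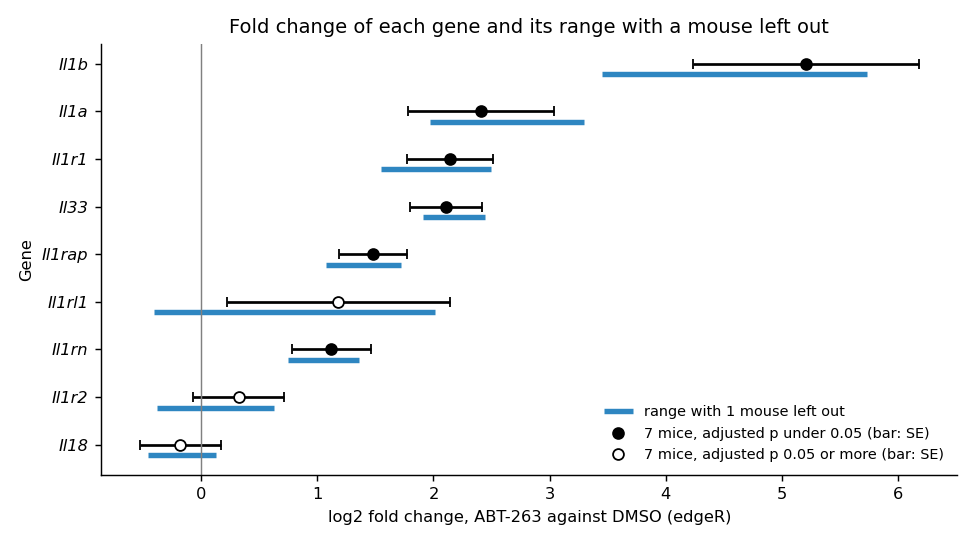
The log2 fold change of each gene, ABT-263 against DMSO, from edgeR, with a bar of 1 standard error (filled point, adjusted p under 0.05) and, in blue, the range with 1 mouse left out. The blue range crosses 0 for Il1r2, Il18 and Il1rl1 only, and is widest above and below for Il1rl1 (-0.41 to 2.01) and Il1b (3.45 to 5.74).

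Levels were compared between genes in CPM per kilobase of exon. In DMSO-treated skin the order was Il18 (44.0 ± 19.0, SD, n = 4), Il1r2 (22.2 ± 3.16), Il1rn (9.57 ± 3.57), Il33 (8.65 ± 3.81), Il1b (4.31 ± 1.74), Il1a (2.11 ± 1.95), Il1r1 (1.72 ± 0.208), Il1rap (0.582 ± 0.0984) and Il1rl1 (0.501 ± 0.482). Epidermal cytokine, decoy and antagonist transcripts thus stood above both agonists. Among neighbours in this order, the ranges over mice did not overlap between Il18 and Il1r2, between Il1r2 and Il1rn, and between Il1r1 and Il1rap, and they overlapped for the other pairs. After ABT-263, Il1b was first at 159.9 ± 197.7 CPM per kilobase (SD, n = 3), followed by Il18 (38.7 ± 12.8), Il33 (37.3 ± 4.75), Il1r2 (27.7 ± 18.8), Il1rn (20.7 ± 8.31), Il1a (11.3 ± 5.28), Il1r1 (7.58 ± 4.61), Il1rap (1.63 ± 0.725) and Il1rl1 (1.15 ± 1.33). Among these neighbours only Il1r1 and Il1rap did not overlap. Il1b thus headed the mean order but ranged from 20.2 to 386.1 CPM per kilobase, a range that held every value of the 3 genes after it except those of Il1r2 below 20.2.

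Promoter sequence was read for the members from RefSeq windows on GRCm38.p6, which run from 250 bases before each transcript start to 50 bases after it. The 9 genes had 14 such windows among 32851 in all. Windows were searched on both strands for TATAAA (the TATA box), GGGA followed by any 4 bases and CC (a core of NF-κB sites) and TGANTCA (the AP-1 site), and none of the matches overlapped another in the members' windows. TATAAA occurred in 6 of the 14 windows, of Il1a, Il1b, Il33, Il18 and Il1rn, and in 13.6% of all windows. The matches of Il18 and Il1rn lay on the strand opposite the gene, that of Il1rn after the start. The NF-κB letters occurred in 2 (Il1rn and Il1rap, 20.7% of all windows) and TGANTCA in 2 (Il1a and Il1rn, 7.81% of all windows). The last 150 bases before the start are shown for the 5 genes that rose and hold a match there, on the strand of the gene and 5′ to 3′, with the matches in capitals. They lie at chr2:129309973-129310122 (minus strand) for Il1a, chr2:129371140-129371289 (minus) for Il1b, chr2:24336710-24336859 (plus) for Il1rn, chr16:26581555-26581704 (plus) for Il1rap and chr19:29945640-29945789 (plus, the inner of its 2 windows) for Il33.
Il1a: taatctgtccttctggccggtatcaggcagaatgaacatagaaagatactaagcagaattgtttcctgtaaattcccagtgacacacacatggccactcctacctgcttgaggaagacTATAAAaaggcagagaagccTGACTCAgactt
Il1b: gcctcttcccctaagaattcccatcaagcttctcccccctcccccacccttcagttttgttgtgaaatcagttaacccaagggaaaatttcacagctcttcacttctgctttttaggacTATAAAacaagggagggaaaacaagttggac
Il1rn: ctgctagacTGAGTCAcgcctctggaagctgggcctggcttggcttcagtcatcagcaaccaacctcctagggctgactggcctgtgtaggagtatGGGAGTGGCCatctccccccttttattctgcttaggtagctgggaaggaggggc
Il1rap: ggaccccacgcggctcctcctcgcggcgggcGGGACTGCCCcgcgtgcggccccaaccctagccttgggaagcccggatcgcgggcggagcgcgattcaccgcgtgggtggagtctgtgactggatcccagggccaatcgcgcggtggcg
Il33: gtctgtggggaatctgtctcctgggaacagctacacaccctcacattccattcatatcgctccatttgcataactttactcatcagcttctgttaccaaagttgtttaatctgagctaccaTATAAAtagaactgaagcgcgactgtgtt

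Both agonist genes and the inner Il33 start carry TATAAA at close to the same distance before the start, 32 bases in Il1a, 31 in Il1b and 29 in Il33. In Il1a the AP-1 letters TGACTCA follow at 12 bases before the start. The Il1rn window holds TGAGTCA at 141 bases and GGGAGTGGCC at 54 bases before its start, and Il1rap holds GGGACTGCCC at 119 bases. Il1r1, Il1r2 and Il1rl1 had none of these letters in their windows. A match to such short letters is a description of the sequence and not a measured site.

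The other genes of the pathway were read from 6 lists with 66 tested genes in all. Of these, 25 were higher and 2 lower, beside 12.4% higher and 11.7% lower over all genes tested. That count was 14 higher without DMSO mouse 481, 9 without 482, 11 without 483 and 12 without ABT-263 mouse 476, and the count over all genes tested fell as well, from 2234 higher to 1404, 850, 988 and 1116. In the lists below with 0 genes lower, the count was also 0 at an unadjusted p under 0.05 from edgeR, with the DESeq2 Wald test and with limma. Over all 17959 genes, 3094 were higher and 2891 lower with the DESeq2 Wald test, and 2146 and 2060 with limma. Of the 5 other cytokines of the family, 0 were higher and 0 lower (2 higher at an unadjusted p under 0.05 from edgeR, 2 with the DESeq2 Wald test, 1 with limma). They had a median log2 fold change of 1.28. Il36g (annotated as Il1f9), a keratinocyte cytokine, was at 46.6, 6.99, 20.4 and 8.59 CPM in DMSO mice 480 to 483 and at 82.2, 72.0 and 89.2 CPM in ABT-263 mice 476 to 478. Its groups did not overlap, with a log2 fold change of 1.97 that just missed the threshold (adjusted p = 0.0532). For Il36b, Il36a and Il1f10 the log2 fold change was 1.75, 1.28 and -1.18 (adjusted p = 0.0991, 0.323 and 0.172). For Il36rn, the antagonist of the IL-36 cytokines, it was 0.36 (adjusted p = 0.698). Il36rn was named after its values were seen.

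Among the other receptors and binding proteins, 2 of 5 tested were higher and 0 lower, with a median log2 fold change of 0.85. Il18rap, the accessory chain of the IL-18 receptor, was at 0.698 to 2.01 CPM after DMSO and at 20.1, 4.56 and 4.38 CPM after ABT-263 (log2 fold change 3.08, adjusted p = 0.0170, and 1.98 without mouse 476). Il18bp, which encodes a secreted protein that neutralizes IL-18, was at 1.90 to 4.13 CPM after DMSO and at 52.1, 6.15 and 7.86 CPM after ABT-263 (log2 fold change 2.79, adjusted p = 0.0353, and 1.15 with an adjusted p of 0.0639 without mouse 476). For the binding chain Il18r1 the value was 0.85 (adjusted p = 0.188), and for the IL-36 receptor Il1rl2 it was 0.38 (adjusted p = 0.213). With 1 mouse left out, Il18rap passed in 6 of 7 fits and Il18bp in 2 of 7. While Il18 itself did not pass, a chain of its receptor and its soluble inhibitor thus rose. Il1rapl1 and Il1rapl2 were too low to be tested.

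Of 12 tested genes for the processing of IL-1 cytokines, 6 were higher and 0 lower, with a median log2 fold change of 1.23. Casp1, the protease that matures IL-1β and IL-18, was at 12.8, 9.27, 10.6 and 8.79 CPM in DMSO mice 480 to 483 and at 33.6, 19.2 and 23.0 CPM in ABT-263 mice 476 to 478 (log2 fold change 1.29, adjusted p = 0.00972). Nlrp3, the sensor of the inflammasome that activates caspase-1, was at 0.548 to 1.39 CPM after DMSO and at 34.6, 17.0 and 2.69 CPM after ABT-263 (log2 fold change 4.18, adjusted p = 0.0127, and 3.31 without mouse 476). Capn2, a calpain subunit of the kind that cuts pro-IL-1α, was at 59.5 to 88.8 CPM after DMSO and at 188.9, 169.0 and 185.2 CPM after ABT-263 (log2 fold change 1.17, adjusted p = 0.00637). Those 3 genes passed with any 1 mouse left out. The DNA sensor Aim2 rose as well (log2 fold change 1.29, adjusted p = 0.0227), in 4 of 7 fits with a mouse left out, and so did Gsdmd and Casp4, which were named after their values were seen (log2 fold changes of 1.75 and 1.86, adjusted p = 0.0356 and 0.0374). Neither call was firm. Mouse 476 stood highest, at 88.3 CPM for Gsdmd against 22.5 and 27.3 CPM in the other ABT-263 mice, and at 47.1 CPM for Casp4 against 8.09 and 19.4 CPM. Without it the log2 fold changes were 0.87 and 1.01 (adjusted p = 0.0509 and 0.0888), Gsdmd passed in 2 and Casp4 in 1 of 7 fits with a mouse left out, and the groups overlapped for Casp4. For Pycard, the adaptor of the inflammasome, the log2 fold change was -0.11 (adjusted p = 0.810). The neutrophil proteases Elane and Ctsg, which can cut IL-1 cytokines outside cells, stayed at or below 0.739 CPM in every mouse and were not tested. Prtn3 and the mast cell gene Cma1, of the same list, were present in every mouse. Their log2 fold changes were 0.75 and 0.79 (adjusted p = 0.378 and 0.258 from edgeR). All of these proteases were named after their values were seen.

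The steps just below the receptor were mixed. Of 15 genes, 4 were higher and 2 lower, with a median log2 fold change of 0.07. Over all genes tested, 12.4% were higher and 11.7% lower, with a median of 0.0, so the count lower and the median were near those values. Map3k8, a kinase between NF-κB signalling and the ERK pathway, was at 2.16 to 4.46 CPM after DMSO and at 13.6, 8.42 and 9.92 CPM after ABT-263 (log2 fold change 1.87, adjusted p = 0.00842). Irak3, which restrains the receptor complex, and Irak2 rose by less (log2 fold changes of 0.98 and 0.74, adjusted p = 0.0288 and 0.0333). Irak1, a kinase of the same complex, was at 87.1 to 94.7 CPM after DMSO and at 76.3, 61.5 and 65.4 CPM after ABT-263 and fell by 0.44 on the log2 scale (adjusted p = 0.0349). Of these 4, only Map3k8 passed with any 1 mouse left out. Irak3 and Irak1 passed in 2 of 7 such fits each and Irak2 in 1 of 7. The other 2 calls were Myd88, higher (0.96, adjusted p = 0.0477), and Chuk, lower (-0.61, adjusted p = 0.0414), both named after their values were seen. Myd88 passed in 1 of 7 fits with a mouse left out and Chuk in 2 of 7, and without mouse 476 the log2 fold change of Myd88 was 0.62 (adjusted p = 0.145).

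Among 12 genes for NF-κB factors and their feedback, 4 were higher and 0 lower, with a median log2 fold change of 0.66. Nfkbiz, an inducible IκB protein needed for a set of late NF-κB targets, was at 13.4 to 20.6 CPM after DMSO and at 84.8, 37.6 and 63.8 CPM after ABT-263 (log2 fold change 1.82, adjusted p = 0.00746). Nfkb1 rose by less (0.82, adjusted p = 0.0124), and both passed with any 1 mouse left out. Tnfaip3, an inhibitor of signalling, was at 3.36 to 5.48 CPM after DMSO and at 49.4, 9.91 and 12.9 CPM after ABT-263 (log2 fold change 2.42, adjusted p = 0.0211, and 1.35 without mouse 476). Zc3h12a, an RNase that degrades inflammatory transcripts, rose by 1.56 on the log2 scale (adjusted p = 0.0415, and 0.113 without mouse 476). Tnfaip3 passed in 5 and Zc3h12a in 2 of 7 fits with a mouse left out.

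The list of effectors that IL-1 is known to induce had the highest median log2 fold change of the 6 lists, 4.09, with 9 of 17 genes higher and 0 lower. Several of these genes, such as Il6 and Cxcl5, were near 0 CPM in some DMSO mice, which makes their fold changes large and uncertain. Among the 10 genes with at least 10 counts in every library, 7 were higher and the median was 2.94. Without mouse 476, 4 of the 17 passed and the median was 1.90. In that fit the processing list and the NF-κB list had 3 of 12 higher each. The receptor-proximal list had 1 of 15 and the receptor list 1 of 5 higher. Over all genes in that fit, 1116 of 18576 were higher. Across tools, 14 effector genes were higher with the DESeq2 Wald test and 7 with limma. With every gene that had a count included in the edgeR fit, 1 was, beside 1873 of 30645 over all genes. Icam1, an adhesion molecule for leukocytes, was at 27.3, 14.5, 19.3 and 20.2 CPM in DMSO mice 480 to 483 and at 126.7, 40.9 and 62.1 CPM in ABT-263 mice 476 to 478 (log2 fold change 1.91, adjusted p = 0.0146). Cxcl3, a neutrophil attractant, was at 0.286 to 2.67 CPM after DMSO and at 168.8, 25.9 and 9.54 CPM after ABT-263 (log2 fold change 5.49, adjusted p = 0.0174, and 3.56 without mouse 476). Icam1 and Cxcl3 passed with any 1 mouse left out. The related chemokine Cxcl2 was at 2.25 to 10.9 CPM after DMSO and at 530.8, 173.0 and 25.1 CPM after ABT-263 (log2 fold change 4.85, adjusted p = 0.0174), and without mouse 476 it was 3.56 (adjusted p = 0.0752). Mmp13, a collagenase, was at 1.39 to 5.86 CPM after DMSO and at 378.2, 16.7 and 29.2 CPM after ABT-263 (log2 fold change 4.98, adjusted p = 0.0254, and 2.37 without mouse 476).

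**Figure D4:**
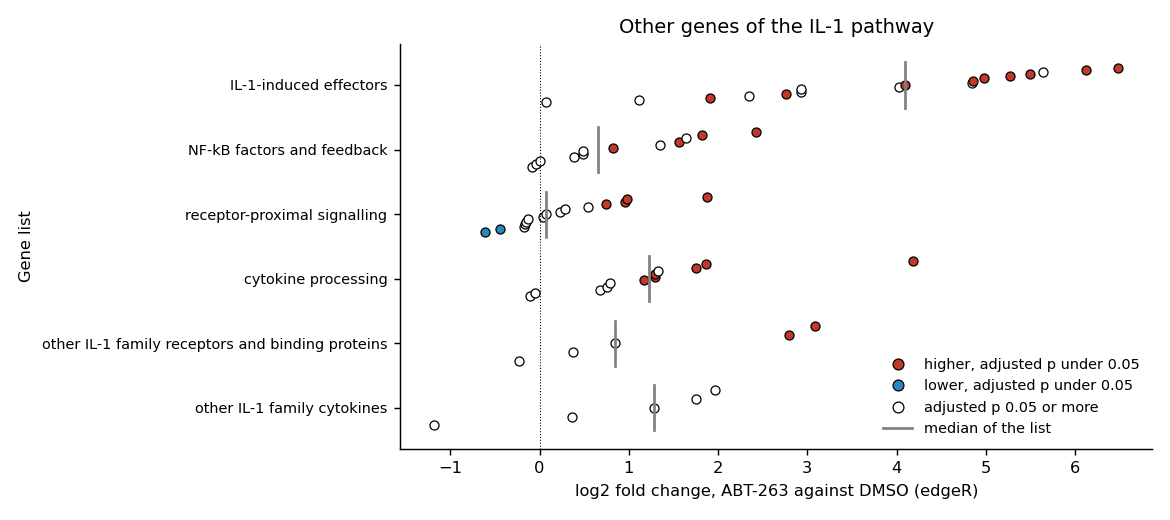
The log2 fold change, ABT-263 against DMSO, from edgeR for each tested gene of the 6 pathway lists, 1 point per gene, with a grey line at each list's median. Filled red points were higher and blue points lower at an adjusted p under 0.05. The medians run from 0.07 (receptor-proximal signalling) to 4.09 (effectors). The effector median was 2.94 among its genes with at least 10 counts in every library.

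Many markers of monocytes or macrophages and of neutrophils were also higher after ABT-263. Of 10 monocyte or macrophage markers, 8 were higher after ABT-263 and 0 lower, and their sum was 315 to 918 CPM in the DMSO mice and 2689, 1007 and 1354 CPM in ABT-263 mice 476 to 478. Of 10 neutrophil markers, 7 were tested and 4 were higher. Without mouse 476, 2 of the 10 monocyte or macrophage markers and 2 of the 7 neutrophil markers were. Since keratinocytes also express S100a8 and S100a9, the other 8 were summed apart, a choice made after the values were seen. This sum was 19.4, 4.22, 11.6 and 12.1 CPM in DMSO mice 480 to 483 and 559, 42.2 and 32.6 CPM in ABT-263 mice 476 to 478. The genes in this sum differed in mice 477 and 478. Csf3r was at 12.4 and 10.7 CPM there, against 1.35 to 3.72 CPM after DMSO. Stfa2l1 was at 13.0 and 2.99 CPM, against 0.655 to 1.18 CPM. Retnlg was at 2.09 and 3.03 CPM, against 0.0843 to 1.03 CPM. Cxcr2 was barely above the DMSO mice, at 13.6 and 14.2 CPM against 0.801 to 12.7 CPM, and did not pass (adjusted p = 0.0965 from edgeR). Mmp8, Camp, Ly6g and Ngp overlapped between the groups. Ly6g was at 14.0 CPM in mouse 476 and at or below 0.253 CPM in every other mouse, and Ngp at 14.7 CPM and at or below 0.123 CPM. Mouse 476 was the highest of the 7 mice in Il1b, in each of the 8 neutrophil genes and in the monocyte or macrophage sum, and Il33 did not share the jump in mouse 476. The DMSO mice did not follow this pattern. Mouse 481 had their highest Il1b (12.1 CPM) and the lowest of both sums (4.22 and 314.9 CPM). Mouse 480 had their lowest Il1b (5.11 CPM) and the highest of both sums (19.4 and 917.9 CPM). Among the ABT-263 mice the neutrophil sum had the same order as Il1b, and the monocyte or macrophage sum did not. The part of leukocyte content in the Il1b, Il1r2 and Il1rl1 values was not tested.

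**Figure D5:**
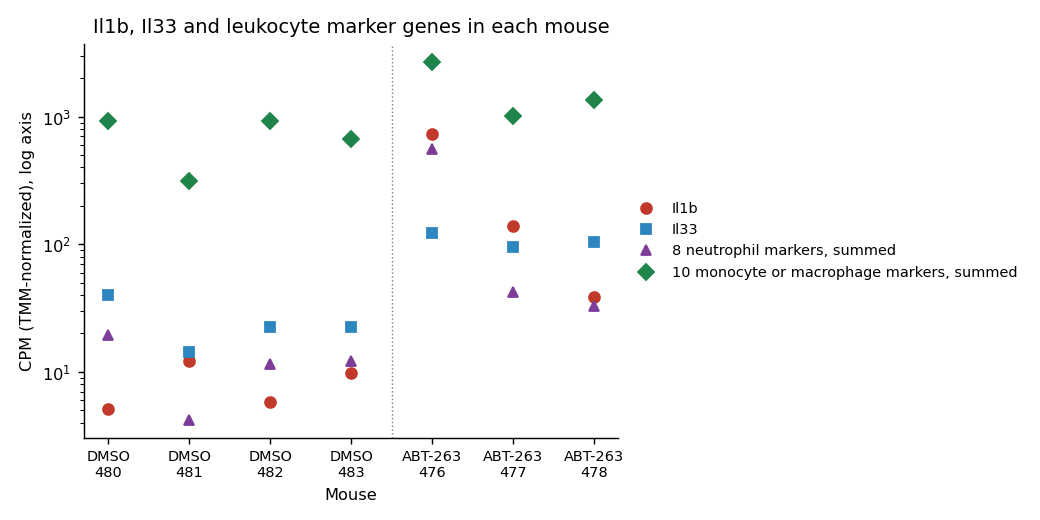
Il1b, Il33, the sum of 8 neutrophil markers and the sum of 10 monocyte or macrophage markers in each mouse, in CPM (TMM-normalized, log axis). Il1b and the neutrophil sum are both far higher in ABT-263 mouse 476 (736 and 559 CPM) than in the other mice, whereas Il33 is level across the 3 ABT-263 mice.

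Stromal markers also moved. All 5 endothelial markers were higher after ABT-263, with a sum of 100.5 to 208.6 CPM in the DMSO mice and of 317 to 417 CPM in the ABT-263 mice, and 3 of 5 fibroblast markers were higher, with sums of 3692 to 5135 CPM and 5768 to 8073 CPM. Without mouse 476, 3 of 5 were higher in each list. These are cells that express Il1r1 and Il33, and their part in those results was not tested. Among basal keratinocyte markers 0 of 6 were higher and 1 (Krt15) was lower, and among suprabasal markers 0 of 6 passed in either direction. For both keratinocyte lists the counts were the same at an unadjusted p under 0.05, with the DESeq2 Wald test and with limma. Of the cells known to carry ST2, mast cells had 0 of 7 markers called by edgeR (2 higher and 1 lower at an unadjusted p under 0.05, 1 and 1 with the DESeq2 Wald test, 0 with limma), with sums of 59.5 to 160 CPM after DMSO and 80.6 to 224 CPM after ABT-263. T cell markers were low, with sums of 9.95 to 39.4 CPM over all mice and 0 of 6 called by edgeR (0 at an unadjusted p under 0.05, 1 higher with the DESeq2 Wald test, 0 with limma). In a list for regulatory T cells and type 2 innate lymphoid cells, 1 gene was higher and 3 lower, but the genes that fell (Gata3, Rora and Ikzf2) are also expressed in the epidermis and hair follicle, and Foxp3 was at or below 0.555 CPM in every mouse.

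The genes whose pattern over the 7 mice was most like each member were found by Pearson's correlation of log2 CPM among 15589 tested genes with a mean of at least 1 CPM. All share the same libraries, and the values describe these 7 mice only. They were picked as the highest among 15589 genes in mice that also differ by treatment. An r near 1 thus does not show a specific link between genes. For Il1b they were Bcl10 (r = 0.995), Slc2a3 (0.991) and Cxcl3 (0.991), and for Il1a Lasp1 (0.994), Fam43a (0.993) and Irak2 (0.992). Il33 was most like Pdia5 (0.999), Adam12 (0.994) and Mpp1 (0.993). For Il1rn they were Actg1 (0.994), Lrrk1 (0.993) and Gnpda1 (0.989). For the receptors they were Pdcd10 (0.997), Ifih1 (0.996) and Tiparp (0.995) for Il1r1, Fjx1 (0.994), Sde2 (0.992) and Gpx8 (0.991) for Il1rap, Mt2 (0.991), B4galt3 (0.977) and Gm31718 (0.966) for Il1r2, and Mapk11 (0.986), Ffar2 (0.984) and F7 (0.981) for Il1rl1. Il18 was most like Cysrt1 (0.986), Pycard (0.985) and Crct1 (0.983). Crct1 belongs to the cornified envelope genes of the epidermis, and Pycard is the inflammasome adaptor whose fold change is given above.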

How the data were processed

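Bulk RNA-seq of dorsal skin from 7 mice (4 DMSO, 3 ABT-263) was analyzed. The authors aligned reads with STAR 2.7.9a to mm10 and counted uniquely aligned proper pairs on the same strand per Ensembl gene with featureCounts (Subread 1.6.2). They deposited raw counts, and a table of variance-stabilized values (the authors' DESeq2 1.23.10 transformation, close to log2), used here only as an alternative. Symbols, positions and exon lengths came from GENCODE M21 (GRCm38), which held 55190 of 55450 identifiers and is not the release the paper names. IL-36 genes were matched through RefSeq synonyms.

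In R 4.3.3, edgeR 4.0.16 (TMM, filterByExpr, robust quasi-likelihood test, two-sided) was fitted to all 7 libraries, with Benjamini-Hochberg adjustment over 17959 genes and a threshold of 0.05. Labels give no batch. Exact permutation tests used log2(CPM + 0.5). As alternatives, the following were used: the Wald test of DESeq2 1.42.0, its size factors, every gene with a count, genes with at least 10 counts in every library, protein-coding genes, counts thinned to the smallest library, length and GC trends removed (mgcv 1.9.3), limma 3.58.1 on the variance-stabilized values, and each mouse left out. The procedure was tested on simulated data. Named genes are the 9 members, up to 4 genes with the smallest p-values per pathway list, and the 3 most similar genes per member. Members and lists were chosen with earlier results of these data known. Depth was 20344364 to 43562330 read pairs per library, with the DMSO libraries the smaller 4.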

Additional observations from a re-analysis of the deposited data

Results flagged for a closer look

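In 4 of 25 measures tested (the 9 genes, 12 cell type marker sums and 4 ratios) 1 DMSO mouse stood apart from the other 3, with a gap to its nearest neighbour above Dixon's critical value as a share of the group's range; chance gives about 1.25 of 25. Il1a was high in DMSO mouse 480 (share of the range 0.864), at 9.90 CPM against 1.77 to 2.87 CPM in the others. The same mouse was high in the sum of basal keratinocyte markers (0.91), at 31151 CPM against 18137 to 19314 CPM, and in the sum of mast cell markers (0.884), at 160 CPM against 59.5 to 71.2 CPM. The sum of hair follicle markers was high in DMSO mouse 481 (0.998). The part of tissue content in the high Il1a value was not tested. Groups of 3 mice were not examined in this way, so mouse 476 was not checked.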

How the results depend on the processing

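The count of IL-1 genes higher after ABT-263 lay between 4 and 6 in all alternatives, and the count lower was 0 in each. Il1b, Il1r1, Il1rap and Il33 passed in all 15 alternatives, Il1a in 8 and Il1rn in 4. Signs turned for Il1r2 (-0.38) and Il1rl1 (-0.41) without ABT-263 mouse 476 and for Il18 (0.13) without DMSO mouse 480, none of which passed in any alternative. With 1 mouse left out their log2 fold changes ranged from -0.38 to 0.63, from -0.41 to 2.01 and from -0.46 to 0.13. The differences in the 3 ratios kept their direction with each mouse left out and per kilobase. Pathway genes higher numbered 25, and 11 with every gene with a count tested, where 0 in place of 2 were lower, and the cause was not tested. With 1 mouse left out, pathway genes higher ranged from 9 to 23 and lower from 0 to 2. Over all genes, 2234 higher and 2108 lower became 850 to 2286 higher and 771 to 2104 lower, with the lowest counts without DMSO mouse 482 and ABT-263 mouse 478. With length and GC trends removed the split was 1826 higher and 2642 lower. A tally over all alternatives covered the 9 members and up to 4 genes with the smallest p-values per pathway list. In it, 422 entries kept direction and side of the threshold, 62 lost the call, 7 gained it and 3 turned sign. Genes named after their values were seen, such as Gsdmd, Casp4, Myd88 and Chuk, and the most similar genes were not in this tally. No paired analysis was possible because the groups share no mouse numbers. Depth limits Il1rl1 most, at 15 read pairs in 1 DMSO library, and the 3 ABT-263 mice limit all tests.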
